A study of Mus musculus with 2 samples.

Results

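Scavenger receptors are surface and endosomal proteins through which cells take up oxidized lipoproteins, dying cells and charged particles. The genes described here are 9 of the 32285 genes in the deposited count matrices, chosen by name: Marco, Msr1, Cd36, Scarb1, Cd163, Mrc1, Cd68, Olr1 and Stab1. The question was which lung cells carried their transcripts, and how the levels in nanoparticle-treated (NP) mice compared with those in saline controls. All mice were female BALB/c (genotype given as BALB/cJ), 12 weeks old, and had received 100000 cells of 4T1, a mouse mammary carcinoma line. From day 1 after the tumor cells, one group was given intravenous saline every 3 days and the other intravenous nanoparticles of PLG, a polyester, on the same schedule. Lungs were taken at day 14 and pooled, 4 mice per condition by the labels and 5 by the study's methods, to make 1 single-cell library per condition. Since there was 1 library per condition, no test was possible and no p-values are given. All intervals are 95% intervals that cover counting error only.

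As background, Marco and Msr1 belong to class A. Both have collagen-like stalks and bind polyanions such as oxidized lipids, bacterial surfaces and negatively charged particles. Cd36 and Scarb1 belong to class B and also carry fatty acids and cholesterol, and Cd36 is abundant in capillary endothelium. Olr1 (LOX-1) is a lectin-like receptor for oxidized LDL, Cd163 takes up hemoglobin bound to haptoglobin, Mrc1 (CD206) is the mannose receptor, Stab1 clears matrix and modified lipoproteins, and Cd68 is a heavily glycosylated protein of late endosomes and lysosomes. Alveolar macrophages are the resident phagocytes of the airspace and monocytes and endothelium face particles arriving in blood.

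The saline matrix held 91168129 unique molecular identifiers (UMIs, each counting 1 captured transcript) and the NP matrix 90081747. After keeping only barcodes that had 500 to 5000 genes and a mitochondrial share below 7.5% there were 8662 saline and 8333 NP cells, with medians of 6474.5 and 6008 UMIs, and 21 barcodes were found as cells in both libraries. Cells were clustered without the receptor genes and named from other marker genes, so every class is written as "-like". Clusters holding 670 saline cells (7.73%) and 969 NP cells (11.6%) stayed unnamed, and the naming thresholds were set after the clusters were seen. Neutrophil-like cells were 62.9% of the saline library (95% CI 61.8% to 63.9%) and 36.0% of the NP library (34.9% to 37.0%). Endothelial-like cells were 3.98% (3.58% to 4.42%) and 15.3% (14.6% to 16.1%). With the unnamed clusters that fell in the endothelial lineage (182 saline and 390 NP cells) they were 527 of the saline and 1667 of the NP cells. Class names were rebuilt here, so shares can differ from those of the study, and results on the mix of classes rest on them. Levels are given as CPM, which scales the UMIs of a gene by all UMIs of a class, and are compared within a gene. Free RNA, which can place UMIs in cells that do not make a transcript, was measured in barcodes with under 50 UMIs.

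All 9 receptor genes are protein coding and each had 1 row in the matrices. On GRCm38 they lie at chr1:120474538-120505024 (Marco), chr8:39581685-39642673 (Msr1), chr5:17781690-17888801 (Cd36), chr5:125277087-125341094 (Scarb1), chr6:124304656-124330527 (Cd163), chr2:14229392-14332057 (Mrc1), chr11:69664213-69666153 (Cd68), chr6:129485244-129507165 (Olr1) and chr14:31139013-31168641 (Stab1), with Cd163 and Mrc1 on the plus strand and the others on the minus strand. RefSeq promoters on GRCm38.p6 were matched for 7 of the 9. The 250 bases before the start are shown for Cd36 (before the RefSeq start in that table, which lies inside the gene span given above), the receptor with its highest levels in capillary-like cells, and for Mrc1, Cd68 and Olr1, which were high in alveolar macrophage-like cells. The last bases of the Mrc1 window, from 14229392 on, also lie inside its gene span. Capitals mark matches on either strand to TGANTCA (the AP-1 and MAF core), GAGGAAG (a PU.1 and ETS core), GGGCGG (the GC box) or CACGTG (the E-box bound by TFEB), which do not overlap in these windows.
Cd36, chr5:17835897-17836146, minus strand: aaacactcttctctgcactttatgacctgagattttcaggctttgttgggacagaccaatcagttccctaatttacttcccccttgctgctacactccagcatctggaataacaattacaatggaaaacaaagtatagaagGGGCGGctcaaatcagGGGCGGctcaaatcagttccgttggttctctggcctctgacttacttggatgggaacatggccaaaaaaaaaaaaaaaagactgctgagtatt
Mrc1, chr2:14229164-14229413, plus strand: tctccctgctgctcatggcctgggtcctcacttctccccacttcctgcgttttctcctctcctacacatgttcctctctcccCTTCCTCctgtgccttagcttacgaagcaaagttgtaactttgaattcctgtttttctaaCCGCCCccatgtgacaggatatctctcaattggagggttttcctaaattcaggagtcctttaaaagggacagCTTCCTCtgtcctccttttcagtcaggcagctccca
Cd68, chr11:69666171-69666420, minus strand: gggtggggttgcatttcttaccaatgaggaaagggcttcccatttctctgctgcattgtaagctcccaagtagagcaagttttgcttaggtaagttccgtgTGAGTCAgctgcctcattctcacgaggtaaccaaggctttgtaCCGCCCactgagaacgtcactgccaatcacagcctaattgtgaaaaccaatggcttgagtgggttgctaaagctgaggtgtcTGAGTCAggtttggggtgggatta
Olr1, chr6:129507166-129507415, minus strand: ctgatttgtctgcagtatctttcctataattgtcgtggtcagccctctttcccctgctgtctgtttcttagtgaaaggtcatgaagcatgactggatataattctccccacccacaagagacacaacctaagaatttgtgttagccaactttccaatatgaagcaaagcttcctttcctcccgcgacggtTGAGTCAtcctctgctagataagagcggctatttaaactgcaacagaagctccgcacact
TGANTCA occurred 2 times before Cd68, at 149 and 24 bases from the start, and 1 time before Olr1, at 60 bases. It was present in 6.75% of all 32851 windows of the same length. GAGGAAG occurred 2 times before Mrc1, at 168 and 36 bases, and 1 time before Marco, against 10.6% of all windows. The Cd36 window held 2 GC boxes, at 109 and 93 bases, and those of Mrc1 and Cd68 held 1 each, against 32.7% of all windows. CACGTG was in none of the 7 windows and in 6.02% of all of them. Letters that match a motif are a description of the sequence and no evidence of binding.

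Alveolar macrophage-like cells (149 saline and 209 NP cells) carried most transcripts of Mrc1 and Olr1. Mrc1 was at 1216 CPM in the saline library (1174 to 1260) and 1147 CPM in the NP library (1114 to 1180), and 98.7% and 98.6% of the cells held a UMI of it. This class supplied 88.2% of all Mrc1 UMIs in saline and 88.7% in NP cells. Mrc1 was next highest in interstitial macrophage-like cells, at 517 CPM in 13 saline cells and 350 CPM in 33 NP cells. Lymphatic-like endothelium had 126 CPM (3 UMIs in 6 saline cells) and 290 CPM (30 UMIs in 22 NP cells). Conventional dendritic-like cells were at 66.9 and 86.6 CPM, and monocyte-like classes lay between 0.327 and 8.13 CPM.

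Olr1 followed the same cells. It stood at 281 CPM in saline (261 to 302) and 278 CPM in NP alveolar macrophage-like cells (262 to 295), and 73.7% and 76.0% of its UMIs were found there. Interstitial macrophage-like cells held 8 UMIs of it in saline, all in 1 cell, and 12 in NP cells. Non-classical monocyte-like cells had 15.9 CPM (7.62 to 29.2) and 23.5 CPM (18.4 to 29.6), intervals that overlap. No Olr1 UMI was found in 399 saline or 522 NP B cell-like cells, which allows up to 0.752% and 0.575% of cells with a UMI, taken as 3 cells of the total.

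Cd68 was the receptor gene shared by all phagocyte classes. Alveolar macrophage-like cells had 451 CPM in saline (426 to 478) and 559 CPM in NP cells (536 to 582), and interstitial macrophage-like cells had 465 and 543 CPM. The 3 monocyte-like classes ranged from 264 to 394 CPM in saline and from 258 to 324 CPM in NP cells. Plasmacytoid and conventional dendritic-like cells lay between 169 and 240 CPM. Mature neutrophil-like cells were at 77.0 CPM (73.8 to 80.4) and 68.1 CPM (63.8 to 72.5), and immature ones at 49.3 and 45.1 CPM. In B cell-like and general capillary-like cells Cd68 stayed between 2.21 and 3.58 CPM. The order of its pooled levels, macrophages over monocytes over dendritic cells over neutrophils, was the same in both libraries. The levels of both macrophage-like classes overlapped within each library. Some steps of the order also had overlapping intervals. In saline these were both macrophage-like classes and the monocyte-like class at 394 CPM. In NP cells they were plasmacytoid dendritic-like cells at 240 CPM and classical monocyte-like cells at 258 CPM.

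Marco and Cd163 were scarce. Marco had 18 UMIs over all saline cells and 24 over all NP cells, with 15 and 19 of them in alveolar macrophage-like cells. There the level was 5.77 CPM (3.23 to 9.52) in saline and 4.72 CPM (2.84 to 7.37) in NP cells, and 2.01% and 2.87% of the cells held a UMI. A single saline cell held 11 of the 15 UMIs and a single NP cell held 8 of the 19, so the transcript sat in a few cells of the class. Cd163 was read mainly in interstitial macrophage-like cells, with 13 UMIs in 13 saline cells and 23 UMIs in 33 NP cells. That gave 96.0 CPM (51.1 to 164) and 51.6 CPM (32.7 to 77.4), intervals that overlap. A single NP cell held 16 of the 23. Conventional dendritic-like cells held 3 and 7 Cd163 UMIs.

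Msr1 was mainly a monocyte transcript in these lungs. Classical monocyte-like cells (587 saline and 734 NP cells) carried 62.5% of its UMIs in saline and 50.7% in NP cells. Their level was 100 CPM (94.2 to 107) and 137 CPM (131 to 144), with a UMI in 68.5% and 77.5% of cells. Monocyte-like cells with both classical and non-classical markers had 130 CPM in 54 saline cells and 147 CPM in 302 NP cells. The non-classical class was lower, at 35.0 and 43.1 CPM, and alveolar macrophage-like cells were at 54.6 and 53.7 CPM. Interstitial macrophage-like cells had 185 CPM (120 to 273) and 209 CPM (168 to 256). Mature neutrophil-like cells held 26 UMIs in 4497 saline cells and 21 UMIs in 2549 NP cells, which is 0.937 and 1.49 CPM.

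Endothelial-like cells had the highest levels of Cd36, and Stab1 and Scarb1 were also found there. Cd36 was at 2902 CPM in saline (2788 to 3020) and 2429 CPM in NP general capillary-like cells (2374 to 2486), 268 and 1006 cells. In aerocyte-like cells, the large gas-exchange capillary cells, it was at 2355 CPM (2163 to 2560) and 2303 CPM (2214 to 2395). Large-vessel-like cells had 961 and 643 CPM and lymphatic-like cells 674 CPM in 6 saline and 880 CPM in 22 NP cells. The 4 endothelial-like classes together held 59.1% of all Cd36 UMIs in saline and 62.8% in NP cells. Outside the endothelium, epithelium-like cells had 380 CPM (334 to 430) and 808 CPM (748 to 871), and non-classical monocyte-like cells had 157 and 132 CPM. Alveolar macrophage-like cells had 100 and 114 CPM. Classical monocyte-like cells had 1.92 and 3.41 CPM of Cd36, so that among monocyte-like cells Cd36 was highest in the non-classical class and Msr1 in the others. Clusters that stayed unnamed held 24.1% and 24.7% of Cd36 UMIs.

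Scarb1, the receptor for high-density lipoprotein, had its highest levels in endothelium and monocytes. General capillary-like cells had 241 CPM (209 to 277) in saline and 175 CPM (160 to 190) in NP cells, and aerocyte-like cells had 162 and 135 CPM. The monocyte-like classes came next, with 165 and 134 CPM in non-classical, 145 and 120 CPM in the class with both marker sets, and 120 and 88.9 CPM in classical cells. Lymphatic-like endothelium had 632 CPM in 6 saline cells and 261 CPM in 22 NP cells, where 16 of the 27 NP UMIs lay in a single cell. Alveolar macrophage-like cells had 69.3 and 60.4 CPM. Monocyte-like cells supplied 49.8% of Scarb1 UMIs in saline and 54.2% in NP cells. Neutrophil-like cells, at low levels but in large number, supplied 16.85% in saline and 2.31% in NP cells. The 4 endothelial-like classes supplied 9.78% and 18.96%. Stab1 was at 183 CPM (132 to 247) and 201 CPM (176 to 230) in aerocyte-like cells and at 74.0 and 83.0 CPM in general capillary-like cells. Stab1 was higher still in lymphatic-like endothelium, at 590 CPM (322 to 989) in 6 saline cells and 396 CPM (285 to 538) in 22 NP cells. Interstitial macrophage-like cells had 340 CPM of Stab1 (46 UMIs in 13 saline cells) and 101 CPM (45 UMIs in 33 NP cells), a log2 ratio of NP over saline of -1.75 (-2.38 to -1.13) in a class below the minimum of 20 cells per library, and alveolar macrophage-like cells held 0 and 2. Of the interstitial markers, only Ms4a7 was higher in NP cells of that class, at 295.5 and 320.7 CPM. C1qa was at 6759 and 4053 CPM, C1qb at 4011 and 2146 CPM and C1qc at 2682 and 2131 CPM. Folr2 was at 162.5 and 67.3 CPM and C3ar1 at 339.8 and 307.3 CPM, and Apoe was also lower in NP cells of that class. Prg4 and Alox15 were among the genes that led its cluster. Whether its makeup differed between the libraries was not tested.

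**Figure D1:**
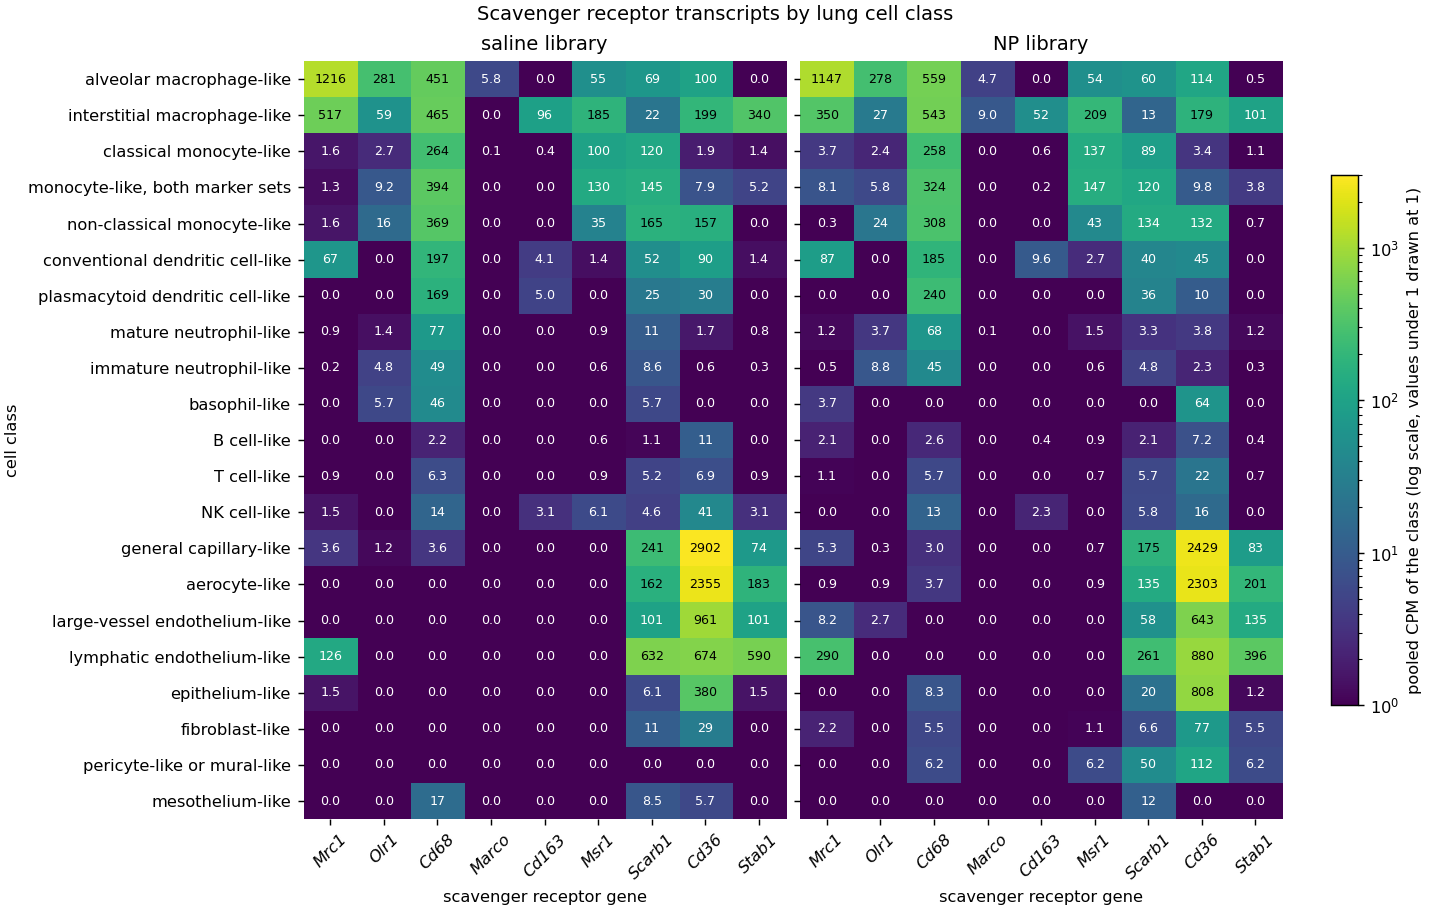
Pooled CPM of each receptor gene (columns) in each cell class (rows), saline library at left and NP library at right, on a log color scale with the CPM written in each box. Mrc1 and Olr1 peak in alveolar macrophage-like cells, Msr1 in monocyte-like and interstitial macrophage-like cells, and Cd36 in general capillary-like and aerocyte-like cells, in both libraries.

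B cell-like cells, which are not phagocytes of this tissue, are given as the comparison for shares of cells. In B cell-like cells thinned to 1000 UMIs, the share with any of the 9 genes was 0.501% in saline and 1.92% in NP cells. The same measure gave 89.2% and 85.0% in alveolar macrophage-like, 89.6% and 87.8% in general capillary-like, 41.1% and 39.5% in classical monocyte-like, and 9.61% and 7.42% in mature neutrophil-like cells. Before thinning, a median of 5 of the 9 genes was found per alveolar macrophage-like cell in both libraries, 3 per classical monocyte-like cell and 1 per general capillary-like cell, but these cells differ in depth (a median of 17371 UMIs in saline alveolar macrophage-like and 2780.5 in saline general capillary-like cells). At 1000 UMIs per cell the medians were 1, 0 and 1. The share with at least 2 of the genes was then 43.9% and 42.5% in alveolar macrophage-like, 46.2% and 36.4% in interstitial macrophage-like (13 and 33 cells) and 24.1% and 21.9% in general capillary-like cells. The 3 genes Mrc1, Cd68 and Olr1 were all present in 91.3% of saline (85.5% to 95.3%) and 90.9% of NP (86.2% to 94.4%) alveolar macrophage-like cells. The 3 genes Msr1, Scarb1 and Cd68 were all present in 56.0% and 55.3% of classical monocyte-like cells, where the former 3 were found together in 1 saline and 1 NP cell.

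Over all cells, the receptors stood higher in the NP library, with intervals that overlapped only for Marco. Cd36 was at 67.1 CPM (65.3 to 68.9) in saline and 223 CPM (220 to 227) in NP cells, Stab1 at 3.77 and 12.0 CPM, Msr1 at 19.4 and 46.0 CPM and Scarb1 at 34.7 and 52.6 CPM. Mrc1 was at 46.1 and 71.9 CPM, Cd68 at 107 and 152 CPM and Olr1 at 12.7 and 20.3 CPM. Each class was then given its saline level and the NP share of UMIs. This mix alone came to 207 CPM for Cd36, 11.4 for Stab1, 77.2 for Mrc1, 154 for Cd68 and 20.1 for Olr1, each within a log2 difference of 0.11 of the NP value. For Msr1 it came to 35.8 CPM, below the NP value by 0.36 on the log2 scale. For Scarb1 it came to 66.1 CPM, and the NP value lay at a log2 difference of -0.33 from it. Unnamed cells counted as 1 class in this mix. With saline levels taken per cluster, the mix came to 243 CPM for Cd36 and 12.6 CPM for Stab1. The NP values then lay at log2 differences of -0.12 and -0.08 from it, where by class they lay at 0.11 and 0.07. For Msr1 and Scarb1 the differences by cluster were 0.33 and -0.33. A class that was more frequent in the tissue and a class that was recovered better from it cannot be told apart here.

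**Figure D2:**
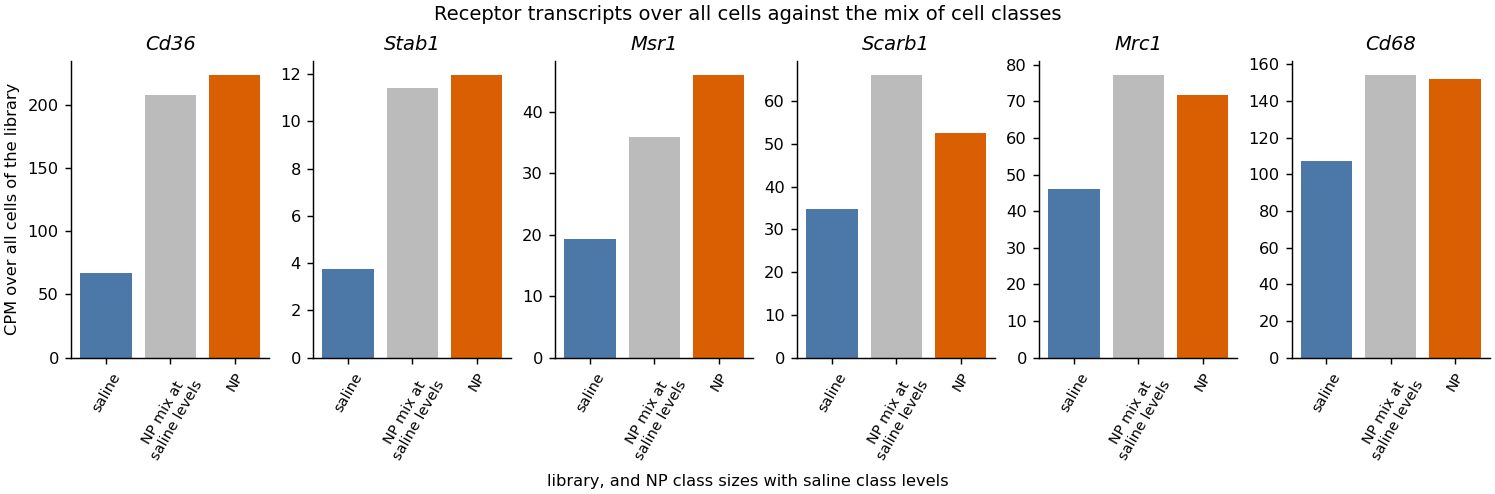
CPM over all cells for 6 receptor genes, in bars that start at 0, for the saline library (left), the NP mix of classes at saline levels (grey, middle) and the NP library (right). For Cd36 the grey bar (207 CPM) lies close to the NP bar (223 CPM), for Msr1 it lies below it, and for Scarb1 (66.1 CPM) it lies above the NP bar (52.6 CPM).

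Within classes, 41 of the 135 pairs of a receptor and a class (15 classes with at least 20 cells in each library) had at least 50 UMIs over both libraries. Of these 41, 6 were at least 2-fold higher in NP cells and 1 was at least 2-fold lower. Over all genes and the same 15 classes, 1.89% of pairs with at least 50 UMIs were at least 2-fold higher and 1.28% were at least 2-fold lower. Beyond that minimum, receptors and all genes were not matched for UMIs. Of the 6 higher pairs, only 1 had at least 200 UMIs. Ratios below are log2 of NP over saline CPM, with the exact conditional binomial interval.

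Scarb1 was lower in NP cells in all 9 classes where it could be compared, although the sign turned under some other settings in conventional dendritic-like cells (up to 0.08) and aerocyte-like cells (up to 0.14). The pair past 2-fold was mature neutrophil-like cells, with 294 UMIs in 4497 saline cells (10.6 CPM) and 46 UMIs in 2549 NP cells (3.26 CPM), a log2 ratio of -1.70 (-2.18 to -1.25). In that class 3.37% of all genes were at least 2-fold lower and the median gene with 200 or more UMIs stood at -0.17. Immature neutrophil-like cells had 8.64 and 4.80 CPM, a ratio of -0.85 (-1.38 to -0.35). The ratio was -0.44 (-0.56 to -0.32) in classical monocyte-like and -0.47 (-0.70 to -0.22) in general capillary-like cells. In the 5 other classes it ran from -0.38 to -0.20 with intervals that held 0. In free RNA Scarb1 was at 30.6 CPM in saline and 43.9 CPM in NP barcodes. The part of free RNA in these ratios was not tested beyond its subtraction.

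Mature neutrophil-like cells of the libraries were spread unequally over clusters. Clusters led by Saa3 (1606 saline and 168 NP cells) or Stfa2 (763 and 61) were mostly saline and a cluster led by the interferon-induced genes Rsad2 and Isg15 (121 and 1006) was mostly NP, and taking the smaller share in each cluster the spreads had 53.3% in common. Scarb1 was therefore also compared inside clusters, a comparison added after the data were seen. Among neutrophil clusters with at least 10 cells in each library and 10 UMIs of Scarb1, it was lower in NP cells in 11 of 11. In the Rsad2 cluster it was at 16.4 and 2.99 CPM (-2.46, -3.71 to -1.14), in the Saa3 cluster at 21.3 and 10.5 CPM (-1.02, -2.36 to 0.05), and in a cluster led by Prok2 at 2.42 and 2.13 CPM. The interval lay below 0 in 4 of the 11 clusters and held 0 in the 7 others. The 11 include immature and unnamed clusters. Among the 4 was an unnamed cluster that also held classical monocyte markers, with Scarb1 at 66.0 and 30.4 CPM. With cluster makeup held equal the ratio in mature neutrophil-like cells was -1.67. No interval was taken for this value. It uses the saline level of the Rsad2 cluster for its 1006 NP cells, and that level rests on 10 UMIs in 121 cells. Among mononuclear phagocyte clusters Scarb1 was lower in NP cells in 8 of 10, and among endothelial clusters in 9 of 10. In each of these 2 lineages the interval lay below 0 in 3 of the 10 clusters and held 0 in 7. Unnamed clusters are counted in both.

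**Figure D3:**
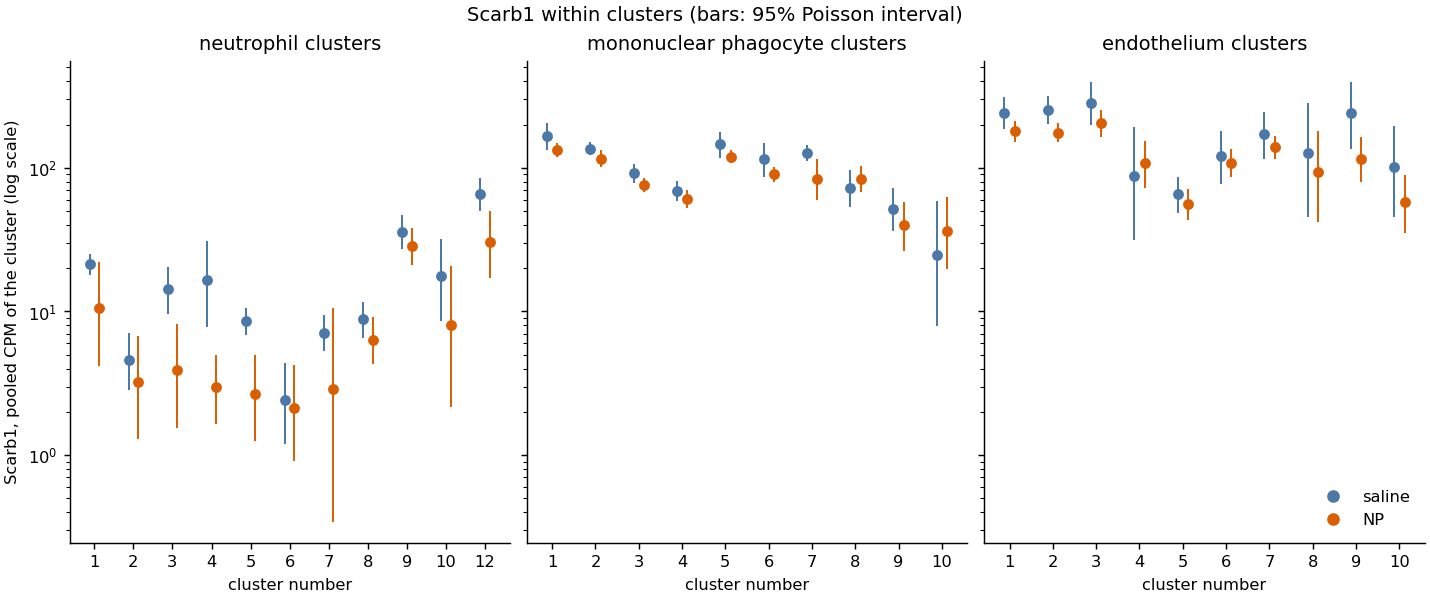
Scarb1 CPM (log scale) in saline and NP cells (colors in the legend) of each cluster with at least 10 cells in both libraries, in 3 panels for neutrophil, mononuclear phagocyte and endothelium clusters, with 95% Poisson intervals for counting error. The NP point lies below the saline point in 11 of 11 neutrophil, 8 of 10 phagocyte and 9 of 10 endothelium clusters, though many intervals overlap. Unnamed clusters are included.

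Msr1 was higher in NP classical monocyte-like cells by 0.45 (0.33 to 0.57), which is under 2-fold. This class too was spread unequally, with 53.8% in common. A cluster that had Apoe among its leading genes (262 saline and 155 NP cells) and another led by Ccr2 and F13a1 (158 and 31) held most saline cells, and a cluster led by Ifi44 and Ifi204 (36 and 285) held many NP cells. The level was 170 CPM in NP and 108 CPM in saline cells of the Ifi44 cluster, and 125 and 94.5 CPM in the Apoe cluster. The ratio was 0.66 (0.27 to 1.07) in the Ifi44 cluster and 0.41 (0.18 to 0.63) in the Apoe cluster. It was 0.20 (-0.24 to 0.61) in the cluster led by Ccr2 and F13a1. In the remaining classical cluster (131 saline and 263 NP cells) it was 0.11 (-0.11 to 0.32). Across phagocyte clusters, named or unnamed, Msr1 was higher in NP cells in 8 of 9. Outside the Ifi44 and Apoe clusters all of these intervals held 0. With cluster makeup held equal the Msr1 ratio in classical monocyte-like cells was 0.39. In alveolar macrophage-like cells the Msr1 ratio was -0.03 (-0.34 to 0.29). Classical and alveolar classes thus gave intervals that did not overlap, but the difference between them was not tested.

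Cd68 was higher by 0.31 (0.21 to 0.41) in NP alveolar macrophage-like cells and lower by log2 ratios of -0.28 (-0.46 to -0.10) in the monocyte-like class with both marker sets and -0.26 (-0.47 to -0.05) in the non-classical class. It differed little in classical monocyte-like cells, at -0.04 (-0.11 to 0.04). Mrc1 and Olr1 stood close to the saline level in alveolar macrophage-like cells, at -0.09 (-0.15 to -0.02) and -0.02 (-0.15 to 0.12). Mrc1 in classical monocyte-like cells was past 2-fold, at 1.22 (0.36 to 2.17), from 15 UMIs (1.60 CPM) to 46 UMIs (3.74 CPM). In this class 1.05% of genes were at least 2-fold higher, and a single NP cell held 10 of the 46. The ratio fell short of 2-fold under 4 other settings and was lowest, at 0.48, with doublet calls removed. The 8 alveolar macrophage markers summed to 2.77 CPM in saline and 3.25 CPM in NP classical monocyte-like cells, with 0 and 1 of them at 0, and their part in the Mrc1 value was not tested.

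Olr1 was also past 2-fold in mature neutrophil-like cells, with 39 UMIs in saline (1.40 CPM) and 52 in NP cells (3.69 CPM), a ratio of 1.39 (0.77 to 2.03). In that class 2.25% of genes were at least 2-fold higher, and 0.756% and 1.53% of cells held an Olr1 UMI. With cluster makeup held equal the ratio was 0.85. Immature neutrophil-like cells had 4.83 and 8.79 CPM, a ratio of 0.86 (0.41 to 1.32), or 0.39 with cluster makeup held equal. The alveolar macrophage markers summed to 24.5 and 22.4 CPM in mature neutrophil-like cells, with all 8 above 0 in both libraries, while Olr1 in free RNA was at 7.58 and 17.9 CPM. The part of free RNA in the Olr1 value was not tested beyond its subtraction, under which the ratio kept its sign.

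Cd36 was lower in NP general capillary-like cells, at -0.26 (-0.32 to -0.19), and aerocyte-like cells gave -0.03 (-0.17 to 0.10). Among endothelial clusters, named or unnamed, it was lower in 9 of 10, with some intervals that held 0. The other was an unnamed cluster that also held mature neutrophil markers, at 0.26 (0.10 to 0.43). In conventional dendritic-like cells Cd36 was at 90.1 and 45.3 CPM, -0.99 (-1.64 to -0.37), a value that came to 0.30 with cells classed by their own marker score. Cd36 was at least 2-fold higher in 4 classes with far lower levels. These were T cell-like cells (6.91 and 22.2 CPM, 1.68), fibroblast-like cells (28.9 and 76.6 CPM, 1.40), mature neutrophil-like cells (1.69 and 3.76 CPM, 1.15) and epithelium-like cells (380 and 808 CPM, 1.09). All genes were as far up in 0.727%, 1.5%, 2.25% and 12.3% of cases in these classes. Free RNA held Cd36 at 61.8 CPM in saline and 196 CPM in NP barcodes. After subtraction of free RNA the ratio in mature neutrophil-like cells came to -0.01. In fibroblast-like cells 11 of the 16 saline UMIs lay in a single cell, and the ratio ran from 0.78 with cells classed by their own marker score to 2.81 without the top cell of each library. A cluster of 29 saline and 42 NP cells held 15 and 48 of the fibroblast-like UMIs. Cd36 there was at 263 and 341 CPM, 0.38 (-0.49 to 1.32). General capillary markers in it averaged 0.87 on the log2 scale over the other clusters of its lineage. In another cluster 1 saline and 14 NP UMIs gave 1.23 (0.09 to 8.21). The part of capillary transcripts in these values was not tested. In T cell-like cells 27 of the 62 NP UMIs lay in a single cell, and without the top cell of each library the ratio was 1.19. The 5 general capillary markers summed to 36.6 and 45.4 CPM in T cell-like cells and to 70.8 and 33.4 CPM in mature neutrophil-like cells, with all 5 above 0 in both.

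Epithelium-like cells of the libraries differed in their mix of clusters. A cluster led by the surfactant genes Sftpc and Sftpa1 held 20 saline and 38 NP cells with Cd36 at 704 and 874 CPM, and a cluster led by the club cell genes Scgb1a1 and Scgb3a2 held 30 and 11 cells at 31.5 and 109 CPM. The ratio was 0.31 (0.10 to 0.53) inside the former and 1.79 (0.24 to 3.28) inside the latter, and 0.32 over the class with this makeup held equal. The value inside the club cell cluster rests on 10 saline and 8 NP UMIs, under the minimum of 50 for a pair. In this class the median gene with 200 or more UMIs stood at 0.23. Stab1 was close to its saline level in aerocyte-like cells, at 0.14 (-0.34 to 0.64), and in general capillary-like cells, at 0.17 (-0.24 to 0.59).

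**Figure D4:**
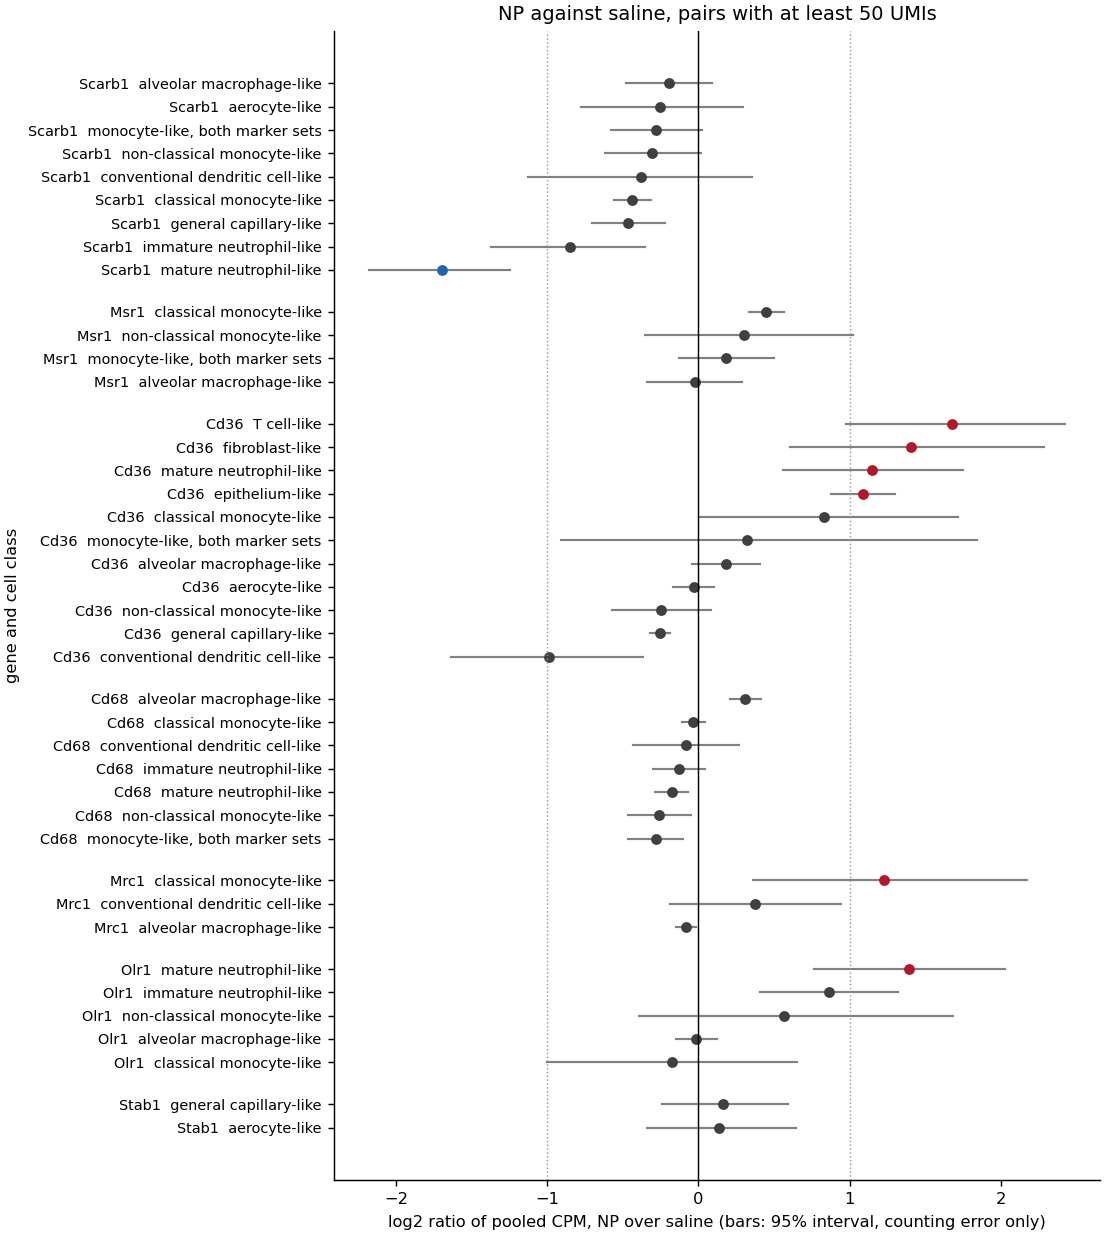
Log2 ratio of CPM, NP over saline, for the 41 pairs of a receptor and a class with at least 50 UMIs, with 95% intervals for counting error; dotted lines mark 2-fold, red points are past it upward and the blue point downward. All 9 Scarb1 points lie left of 0, and the points past 2-fold are Cd36 in T cell-like, fibroblast-like, mature neutrophil-like and epithelium-like cells, Mrc1 in classical monocyte-like cells, Olr1 in mature neutrophil-like cells and Scarb1 in mature neutrophil-like cells.

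Genes that act beside or after these receptors were read from 7 lists. In alveolar macrophage-like cells 1 of the 89 listed genes with enough UMIs was past 2-fold upward and 0 were downward, against 0.486% and 0.255% of all genes there. It was Hmox1, the inducible heme oxygenase, at 86.2 CPM in saline and 187 CPM in NP cells (1.12, 0.90 to 1.34). All 20 lysosome genes, 17 actin and phagosome genes and 12 of 16 clathrin and caveolin genes could be read there, with medians of 0.08, 0.02 and -0.05. In classical monocyte-like cells the integrin gene Itgax was past 2-fold downward, at 5.65 and 1.87 CPM (-1.60, -2.37 to -0.87), against 0.589% of all genes that far down.

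In mature neutrophil-like cells 2 of 82 listed genes (2.44%) were past 2-fold downward and 4 (4.88%) upward, against 3.37% and 2.25% of all genes. These were Lrp1, a large endocytic receptor that also binds apolipoproteins, at 12.1 and 4.68 CPM (-1.37, -1.77 to -0.99), and Plin2, the coat protein of lipid droplets, at 444 and 213 CPM (-1.06). Upward were Ctss, a lysosomal protease, at 66.0 and 136 CPM (1.04), and, at levels of 3.05 CPM or less, Pltp (1.60), Lpl (1.03) and Cd93 (1.02). In T cell-like cells Hmox1 was at 12.4 and 6.08 CPM (-1.03), in a class where 1.01% of all genes were as far down. In fibroblast-like cells 1 of 66 listed genes (1.52%) was past 2-fold upward and 3 (4.55%) downward, against 1.5% and 1.59% of all genes. Ager was higher (19.9 and 66.7 CPM, 1.75), and Scara5 (-1.27), Lpl (-1.21) and Axl (-1.16) were lower. Ager also led an unnamed cluster that held epithelial markers. The part of mixed cells or free RNA in its fibroblast-like value was not tested. In epithelium-like cells, with the shift in clusters given above, 10 of 46 listed genes were past 2-fold upward, in a class where 12.3% of all genes were, among them Fabp5 (512 and 1444 CPM) and Scarb2 (66.9 and 142 CPM), and Pltp and Rac2 were past it downward, beside 1.96% of all genes.

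The genes outside the lists whose levels over 36 class-by-library points ran most like a receptor were found by Pearson's r among 11715 genes. The points share libraries and depth, so r is a description. For Msr1 they were Trem2 (0.949), Fcgr1 (0.942) and F10 (0.936). Cd68 ran with Mpeg1 (0.951), Cd300c2 and Csf2ra, Mrc1 with Ltc4s (0.940), Lrp12 and Prune2, and Olr1 with Rims3 (0.939), AU022793 and F7. For Stab1 they were Lyve1 (0.939), Fgd5 and She, for Cd36 Cyb561 (0.896), Pkp4 and Afap1l1, and for Scarb1 Tbkbp1 (0.885), Mospd2 and Fam117b. Marco and Cd163 had too few UMIs for this. Among the 7 other receptors r was 0.777 for Msr1 with Cd68, 0.759 for Cd36 with Stab1, 0.734 for Mrc1 with Olr1 and -0.346 for Cd36 with Cd68.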

How the data were processed

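The authors deposited 1 raw matrix of UMI counts per library, made from 10x Chromium 3′ reads with Cell Ranger. The submitters' processing notes name version 6.0 and mm10, and the matrix headers name version 4. Red blood cells were lysed and lungs digested with liberase before capture. Cells were barcodes that had 500 to 5000 genes and a mitochondrial share below 7.5%. After scaling each cell to 10000 and taking logs, cells were clustered on 2000 variable genes without the listed genes (30 components, 20 neighbours, Leiden resolution 1, leidenalg 0.10.2). The neutrophil, mononuclear phagocyte and endothelial lineages, and stroma with epithelium, were then each clustered again, a small lineage with 20 components. Clusters were named from marker genes, with at least 3 detected. Doublets were not removed, and their removal was an alternative. Scrublet (scanpy 1.11.5) marked 0.0115% of saline cells and had not worked there. The top 6% of saline scores were used instead, a choice made after seeing the data.

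CPM carry exact Poisson, shares exact Clopper-Pearson and ratios exact conditional binomial 95% intervals (scipy 1.17.1), which cover counting error only. A level under 3 UMIs was set to 3 in a ratio. For shares, cells were thinned to 1000 UMIs where stated. A pair was compared with at least 50 UMIs and at least 20 cells per library. The ratios and thinning were tested on simulated data. For the ratios these were Poisson draws of class counts, the model the intervals assume, without UMIs gathered in single cells. They therefore do not show how the intervals hold where 1 cell carries many UMIs. Named were all 9 receptors, listed genes past 2-fold in classes where a receptor was past it or in alveolar macrophage-like cells, and the 3 genes most like each receptor in log2(CPM + 10) among those with at least 200 UMIs. The members and lists were chosen with earlier results of these data known. Coordinates are from the GENCODE annotation of GRCm38, which held 99.6% of the gene IDs. With 1 library per condition, no test was made.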

Additional observations from a re-analysis of the deposited data

Results flagged for a closer look

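Several values stand out, and none of the differences between classes was tested. The Cd36 log2 ratio of NP over saline was 1.09 in epithelium-like cells and -0.26 in general capillary-like cells, with counting intervals on opposite sides of 0. The epithelium-like value was 0.32 with cluster makeup held equal, in a class where 12.3% of all genes were at least 2-fold higher. The Cd68 ratio was 0.31 in alveolar macrophage-like cells, against -0.28 in the monocyte-like class with both marker sets, -0.26 in non-classical monocyte-like cells and -0.18 in mature neutrophil-like cells. In mature neutrophil-like cells the median gene with 200 or more UMIs stood at -0.17, and Cd68 lay at -0.008 from that median.

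The Cd36 and Cd68 ratios named here rest on at least 200 UMIs each.

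Barcodes that the main filters left out also held transcripts of some receptors at 4 or more times the level over all kept cells. That comparison is with all classes together. In kept alveolar macrophage-like cells Mrc1 was higher than in these barcodes, at 1216 CPM in saline and 1147 CPM in NP cells. In the 119 saline barcodes with over 5000 genes, Marco was at 19.5 CPM, Mrc1 at 296 CPM and Olr1 at 74.3 CPM. Of the 84 Marco UMIs there, 53 and 30 lay in 2 barcodes that each held 8 of 8 alveolar macrophage markers, while all kept saline cells together held 18. The 236 such NP barcodes had Mrc1 at 337 CPM and Olr1 at 95.6 CPM, and 12 Marco UMIs. At least 5 alveolar macrophage markers were found in 41 of the saline and 82 of the NP barcodes. Cd36 was at 609 CPM in saline barcodes with 7.5% or more mitochondrial UMIs and at 541 CPM in saline barcodes with at least 200 but under 500 genes, and in the NP library at 758 and 857 CPM in the same kinds of barcode, which is under 4 times its level over kept NP cells. Whether these barcodes hold single cells was not tested.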

How the results depend on the processing

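No paired analysis was possible because there was 1 library per condition. Of 286 values that answer a comparison, 238 stayed within the counting interval (counts of pairs, within 1.5 times), and 48 moved; of 439 others, 427 stayed, 10 moved and 2 whose interval excluded 0 turned in sign. Over all settings 29 of the 41 ratios kept their sign and 12 turned at least 1 time, 10 of them with an interval that held 0. The 1 pair at least 2-fold lower became 2 with at least 800 genes, no upper gene limit, a 15% mitochondrial limit, shared barcodes removed, median scaling or the top cell left out, and 3 at 1.5-fold. The 6 pairs at least 2-fold higher became 1 with at least 200 UMIs and 3 with cluster makeup held equal. With cells classed by their own marker score, the Cd36 ratio in general capillary-like cells went from -0.26 to -0.11 and that in conventional dendritic-like cells from -0.99 to 0.30. Subtracting free RNA took Cd36 in mature neutrophil-like cells from 1.15 to -0.0069. The causes were not tested.

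Thinned shares depend on the depth chosen. At 2000 UMIs (saline, then NP) they were 98.2% and 97.0% for Cd36 and 28.4% and 30.3% for Scarb1 in general capillary-like cells, 88.4% and 87.4% for Mrc1, 53.1% and 63.1% for Cd68 and 41.5% and 46.1% for Olr1 in alveolar macrophage-like cells, and 34.3% and 37.5% for Stab1 in aerocyte-like cells, with 23.2% for Msr1 in NP monocyte-like cells with both marker sets. At 500 UMIs the same shares were 66.0% and 62.4%, 11.9% and 8.85%, 40.9% and 42.1%, 20.1% and 22.5%, 12.1% and 12.0%, 11.2% for Stab1 in NP cells and 5.63% for Msr1 in NP cells. The shares under the settings that follow were taken at 1000 UMIs per cell, so they cannot be set against those at 500 or 2000 UMIs. With at least 800 genes, Msr1 in the saline class with both marker sets was at 3.25% and Cd36 in general capillary-like cells at 91.5% and 86.9%. Without the upper gene limit, saline Cd68 was at 45.2% and saline Stab1 at 6.12%. With the 15% limit, NP Mrc1 was at 70.0%, Cd68 at 44.7% and Olr1 at 28.1%. By own marker score, saline Cd36 was at 81.4%, and Mrc1 at 57.4% and 55.9%. Without doublet calls NP Stab1 was at 13.7%, and without shared barcodes NP Scarb1 was at 14.1%.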
